A study of Sus scrofa with 3 samples.

Results

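The livers of an Enshi black pig and a Chinese wild boar were compared by RNA sequencing, with 1 library from each. Enshi black is a native Chinese pig breed, and the Chinese wild boar stands for the undomesticated form of the same species. Both animals, and the Large White pig of the remaining library, were males at postnatal day 90, and the labels describe no treatment, genotype, transgene or pooling. The genes compared were those with at least 1 CPM in either of the 2 libraries, where CPM is the number of reads of a gene per 1000000 reads of its library after scaling. This left 12946 of the 25322 gene IDs in the tables, and 8625 of the 12946 had a gene symbol. With 1 animal and 1 library a side, breed, animal and library cannot be told apart, and no test across animals was possible. Every interval in parentheses is a 95% exact binomial interval around a fold and covers counting error only. A gene is said to pass, or to be called higher or lower, when the bound of its interval nearest to 1 lies at least 2-fold away. Where a gene did not pass, its levels are given without a direction.

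The liver makes most plasma proteins, stores glucose as glycogen, releases glucose between meals, and converts surplus carbohydrate to fat. Hepatocytes do most of this work, and they divide it by place. Those near the portal vein favour glucose release and urea synthesis, and those near the central vein favour glutamine synthesis and detoxification. Sinusoidal endothelial cells, Kupffer cells, stellate cells and lymphocytes fill the remaining space. In bulk tissue, fewer cells of a type and less RNA per cell cannot be told apart.

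Hepatocyte genes dominated both libraries. Albumin (ALB), the main plasma protein, had 66555 CPM in Enshi black and 53772 in Chinese wild boar, and transferrin (TF), the iron carrier, had 23613 and 18179 CPM. Neither passed. Gene counts summed to 20654571 in Enshi black and 20215871 in Chinese wild boar, so that 1 count was worth 0.0464 and 0.0507 CPM. A floor of 3 counts, set in place of a count of 0, was worth 0.139 and 0.152 CPM. Reads that fell on several genes made up 1.89% in Enshi black and 2.49% in Chinese wild boar. The total for this share was the reads counted to a gene, to no gene or to several genes. Folds also moved with the length of genes. Over 10 equal groups of RefSeq gene span, the median log2 fold of Enshi black over Chinese wild boar went from -0.19 in the shortest group to 0.23 in the longest. A short gene that was lower, or a long gene that was higher, moved with this trend, and its part in single results was not tested beyond the centred values named below.

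**Figure D1:**
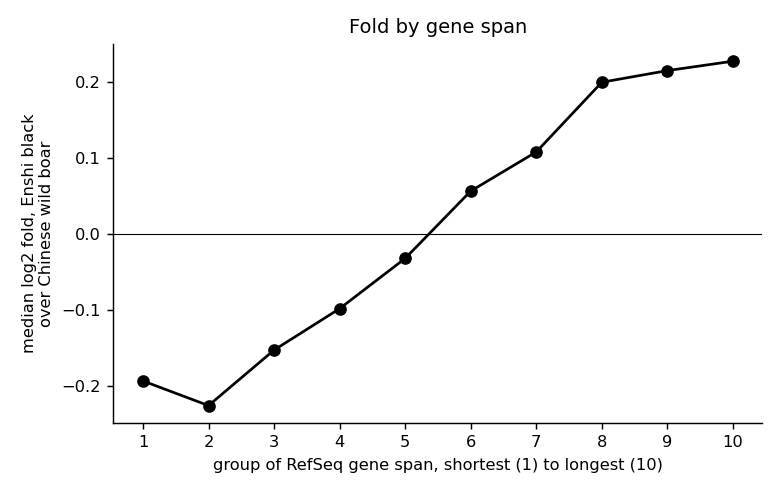
Median log2 fold of Enshi black over Chinese wild boar (y axis) in 10 equal groups of expressed genes with a symbol, ordered by RefSeq gene span (x axis, shortest group 1 to longest group 10). The medians lie below 0 in groups 1 to 5 and above 0 in groups 6 to 10, from -0.23 in group 2 to 0.23 in group 10.

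Of the 12946 genes, 524 passed as higher in Enshi black (4.05%) and 934 as lower (7.21%), or 11.3% in all. The median log2 fold over all genes was 0.0069, a value that the scaling itself brings near 0. With total gene counts as scaling it was 0.107. Large differences lay mostly on the lower side: 70 genes had a near bound of at least 32-fold as lower in Enshi black, against 15 as higher. The share called was 13.2% among genes that reached 1 to 10 CPM in the higher library, 9.06% at 10 to 100 CPM, 12.99% among the next 1401 genes, which reached 100 CPM or more, and 23.7% among the 131 most abundant. Genes called higher took 7.16% of gene counts in Enshi black and 2.30% in Chinese wild boar, and genes called lower took 3.93% and 11.2%. Among the genes with a symbol, which are the ones described here, 3.54% passed as higher and 5.47% as lower, or 9.01% in all. These shares are the background against which the counts of each gene group are to be read.

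**Figure D2:**
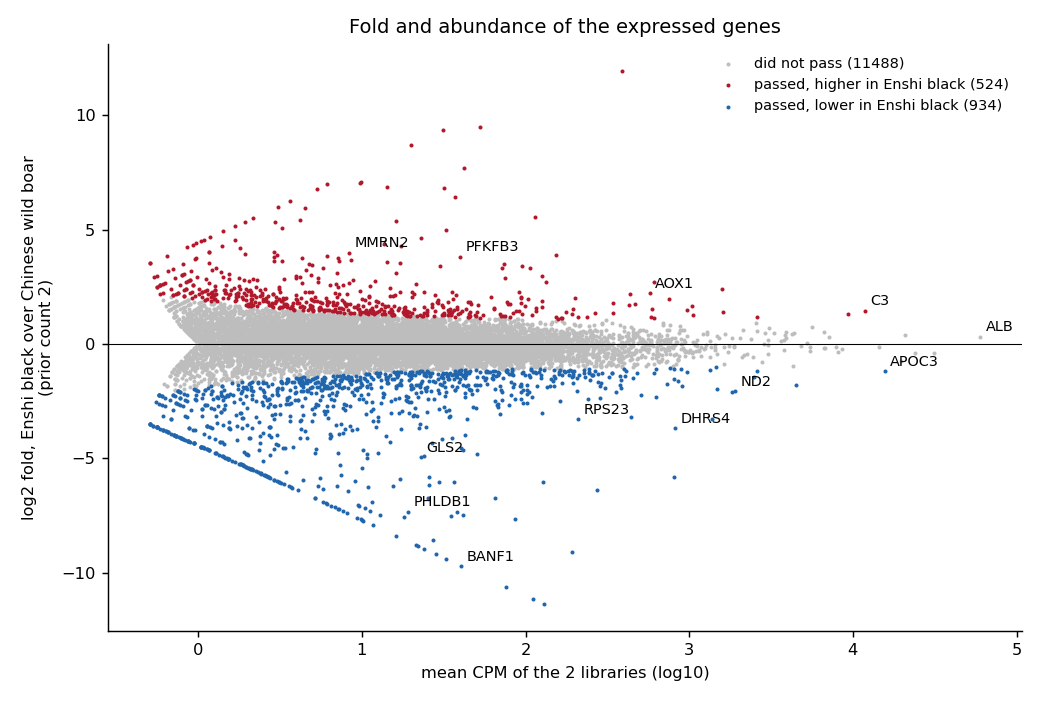
Each point is 1 of 12946 expressed genes, with the mean CPM of the 2 libraries on a log10 x axis and the log2 fold of Enshi black over Chinese wild boar (prior count 2) on the y axis. The 524 genes in red passed as higher in Enshi black, the 934 in blue passed as lower, and the straight lower edge of blue points is made of genes with no count in Enshi black.

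The genes farthest above Chinese wild boar in Enshi black included an enzyme of glucose use, the leptin receptor and immune genes. PFKFB3 makes the metabolite that drives glycolysis, and it had 74.1 CPM in Enshi black and 5.17 in Chinese wild boar, 14.3-fold (11.7 to 17.7) higher. Large White lay nearer to Enshi black, at 44.7 CPM. LEPR, the leptin receptor, had 131 CPM in Enshi black and 13.2 in Chinese wild boar, 9.93-fold (8.74 to 11.3) higher, while Large White had 2.5 CPM. UBD, a ubiquitin-like modifier induced by inflammatory cytokines, had 135 against 12.1 CPM, 11.2-fold (9.78 to 12.8) higher. The transcription factor MYCN was 12.4-fold (9.07 to 17.4) higher, with 26.4 and 2.13 CPM. PON3, a lactonase carried on high-density lipoprotein, was 10.7-fold (8.74 to 13.3) higher at 54.8 CPM, and Large White had a like level of 56 CPM.

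Several other leading genes were read few times in Chinese wild boar. MMRN2, an endothelial matrix protein, had 341 counts in Enshi black, 18 in Chinese wild boar and 9 in Large White, 17.3-fold (10.8 to 29.6) higher. The lipid-oxidising enzyme ALOX15 had 289, 20 and 2 counts in the same order and was 13.2-fold (8.41 to 22) higher. TNFRSF9, a costimulatory receptor of activated T cells, had 120 counts against 5, 22-fold (9.16 to 68.9) higher. The histamine receptor HRH1 had 83 counts against none and was at least 25.3-fold higher over the floor, with a 95% lower bound of 20.1. RNF181, a ubiquitin ligase, the adhesion protein NECTIN1 and the ubiquitin ligase NEURL3 were also read 0 times in Chinese wild boar, with 45, 42 and 37 counts in Enshi black. ZBTB32, a transcriptional repressor of lymphocytes, and the protease inhibitor SPINK5 had 1 count each in Chinese wild boar, against 71 and 59 in Enshi black.

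The genes lowest in Enshi black were mostly ones that its library hardly held at all. BANF1, a chromatin-binding protein of the nuclear envelope, had no count in Enshi black but 1600 in Chinese wild boar and 1307 in Large White, and was at least 583-fold lower over the floor, with a 95% lower bound of 473. GNB2, a G protein subunit, had 0, 402 and 524 counts in the same order and was at least 146-fold lower over the floor, with a lower bound of 119. The actin-capping subunit CAPZA2 (204 counts in Chinese wild boar), TBRG1 (160) and ARMC10 (146) also had none in Enshi black. C2orf68, ZNF251, DENND2D and MRPL55 had 1 count each in Enshi black against 511, 445, 412 and 371 in Chinese wild boar. PHLDB1 had 3 counts against 753, a ratio of 274 (93.5 to 1333) towards Chinese wild boar. ANKS4B, a scaffold of microvilli, was 73.7-fold (45.8 to 127) lower, with 0.788 CPM against 58.1. C19orf53 was 117-fold (78.1 to 182) lower, with 1.11 against 129.7 CPM. GCAT, an enzyme of threonine breakdown, had 2 counts against 323, and UBL5, a ubiquitin-like splicing protein, 4 against 428.

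This near absence was uneven between the libraries. At most 3 counts in Enshi black, with at least 5 CPM in Chinese wild boar, were found for 62 gene IDs, of which 44 had no count and 15 had a symbol. Of the 62, 47 also had at least 5 CPM in Large White. The reverse, at most 3 counts in Chinese wild boar and at least 5 CPM in Enshi black, was found for 15 gene IDs, of which 6 had no count, none had a symbol and 1 had at least 5 CPM in Large White. Whether read mapping or assignment had a part in such near absence, here or in other genes with few counts, was not tested. IDs without a symbol held the widest differences of all: 1 had 16851 counts in Enshi black and 2 in Chinese wild boar (ENSSSCG00000030790), and another had none and 5087 (ENSSSCG00000016312). Of the 1458 genes called, 681 had no symbol, 219 of them higher and 462 lower. ABCC8, the sulfonylurea receptor of pancreatic islets, differed from the genes above in Large White: it had 148 counts in Chinese wild boar and none in either other library, at least 53.9-fold lower in Enshi black over the floor, with a lower bound of 43.3.

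Among abundant genes, those that passed included secreted proteins on both sides. Complement C3, the hub of the complement cascade, had 17279.6 CPM in Enshi black and 6343 in Chinese wild boar, 2.72-fold (2.71 to 2.74) higher, and Large White had 16759 CPM. Fibronectin (FN1), a plasma and matrix glycoprotein, had 13166 against 5376 CPM, 2.45-fold (2.43 to 2.47) higher. TSKU, a secreted leucine-rich protein of the liver, was 3.36-fold (3.24 to 3.47) higher at 724 CPM. In the other direction, apolipoprotein C-III (APOC3), which restrains triglyceride clearance, had 9496 CPM in Enshi black and 21692 in Chinese wild boar, 2.28-fold (2.27 to 2.3) lower. ZPR1, a zinc finger protein, had 256 CPM in Enshi black and 2498 in Chinese wild boar, 9.77-fold (9.5 to 10.05) lower, and Large White had 478. DHRS4, a peroxisomal retinol and carbonyl reductase with near-identical copies, had 119.5 against 1528 CPM, 12.8-fold (12.3 to 13.3) lower, and Large White sat beside Enshi black at 148. Apolipoprotein E (APOE) had 14680.2 CPM in Enshi black and 24868 in Chinese wild boar, and its interval (1.69 to 1.70) did not reach the bound of 2. The plasma proteins PLG, HPX and AHSG, and the mitochondrial COX1 and COX3, were among the 15 most abundant IDs and did not pass either.

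Gene lists covering liver functions, cell types and cell states were then counted. The 64 lists held 1783 expressed genes, of which 105 passed as higher in Enshi black and 131 as lower. Over all 8625 expressed genes with a symbol, 305 passed as higher (3.54%) and 472 as lower (5.47%). Both shares were larger among the listed genes. The lists were chosen with earlier results of these data known, so this excess is not a result about them. List medians ran from -0.83 to 1.25 on the log2 scale, and 31 of the 64 lay above 0. Both ends were short lists whose sign turned when only genes of at least 10 CPM were kept: B and plasma cell markers went from 1.25 over 8 genes to -1.53 over 2, and neural, muscle and pancreas markers from -0.83 over 8 to 1.09 over 3. Several genes belong to more than 1 list.

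**Figure D3:**
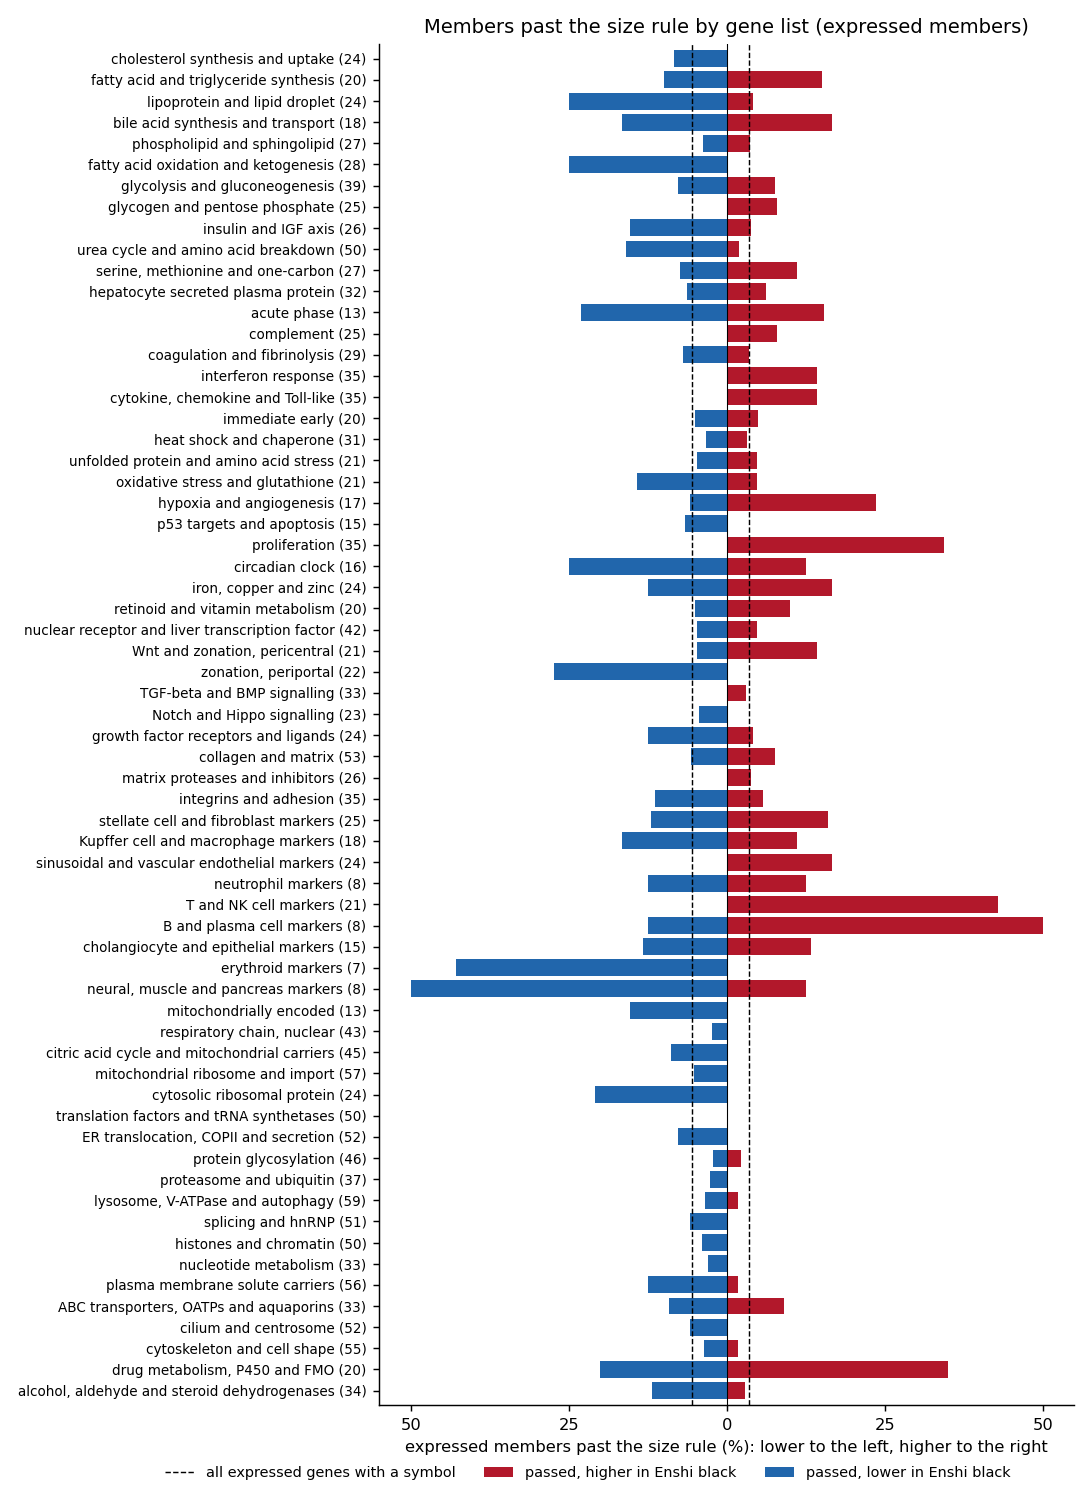
Share of expressed members past the size rule in each of 64 gene lists (y axis, number of expressed members in parentheses), as percent higher in Enshi black to the right in red and percent lower to the left in blue. The dashed lines mark the shares over all expressed genes with a symbol, 3.54% higher and 5.47% lower; the proliferation bar extends only to the right and the periportal bar only to the left.

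Control enzymes of glycogen and glucose metabolism passed on both sides. Glycogen synthase (GYS2), the liver enzyme that builds glycogen, had 320.5 CPM in Enshi black and 80.9 in Chinese wild boar, 3.96-fold (3.75 to 4.19) higher. PPP1R3B, which brings a phosphatase to glycogen and activates its synthesis, had 654 against 201 CPM, 3.25-fold (3.14 to 3.37) higher. PDHA1, a subunit of the complex that commits pyruvate to acetyl-CoA, was 2.57-fold (2.46 to 2.68) higher at 384 CPM. PCK1, the controlled step of gluconeogenesis, had 577 CPM in Enshi black and 1348 in Chinese wild boar, 2.34-fold (2.29 to 2.39) lower. Pyruvate carboxylase (PC), which feeds the same route, was 2.08-fold (2.03 to 2.13) lower, and the glycolytic enzyme PKLR was 2.33-fold (2.15 to 2.53) lower. PC did not pass with total counts as scaling, and neither PC nor PKLR passed once folds were centred within groups of gene span. In all, 3 of 39 glycolysis and gluconeogenesis genes passed as higher and 3 as lower (median log2 fold -0.038), and 2 of 25 glycogen and pentose phosphate genes passed as higher and none as lower (0.066). Both medians lay close to that of all genes.

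In the insulin and insulin-like growth factor axis, 1 of 26 genes, LEPR, passed as higher and 4 as lower (median -0.12). IGF1, the growth hormone mediator that the liver secretes, had 5.7 CPM in Enshi black and 34 in Chinese wild boar, 5.96-fold (4.91 to 7.28) lower, with Large White between them at 15.8. IGFALS, which holds circulating IGF in a stable complex, had 64.5 against 233 CPM, 3.61-fold (3.4 to 3.84) lower. IGFBP1, a binding protein that insulin represses, had 17.3 against 118 CPM, 6.81-fold (6.1 to 7.62) lower, and Large White was highest at 542. The phosphatidylinositol kinase subunit PIK3R1 had 10 counts against 65, 7.1-fold (3.63 to 15.5) lower.

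**Figure D4:**
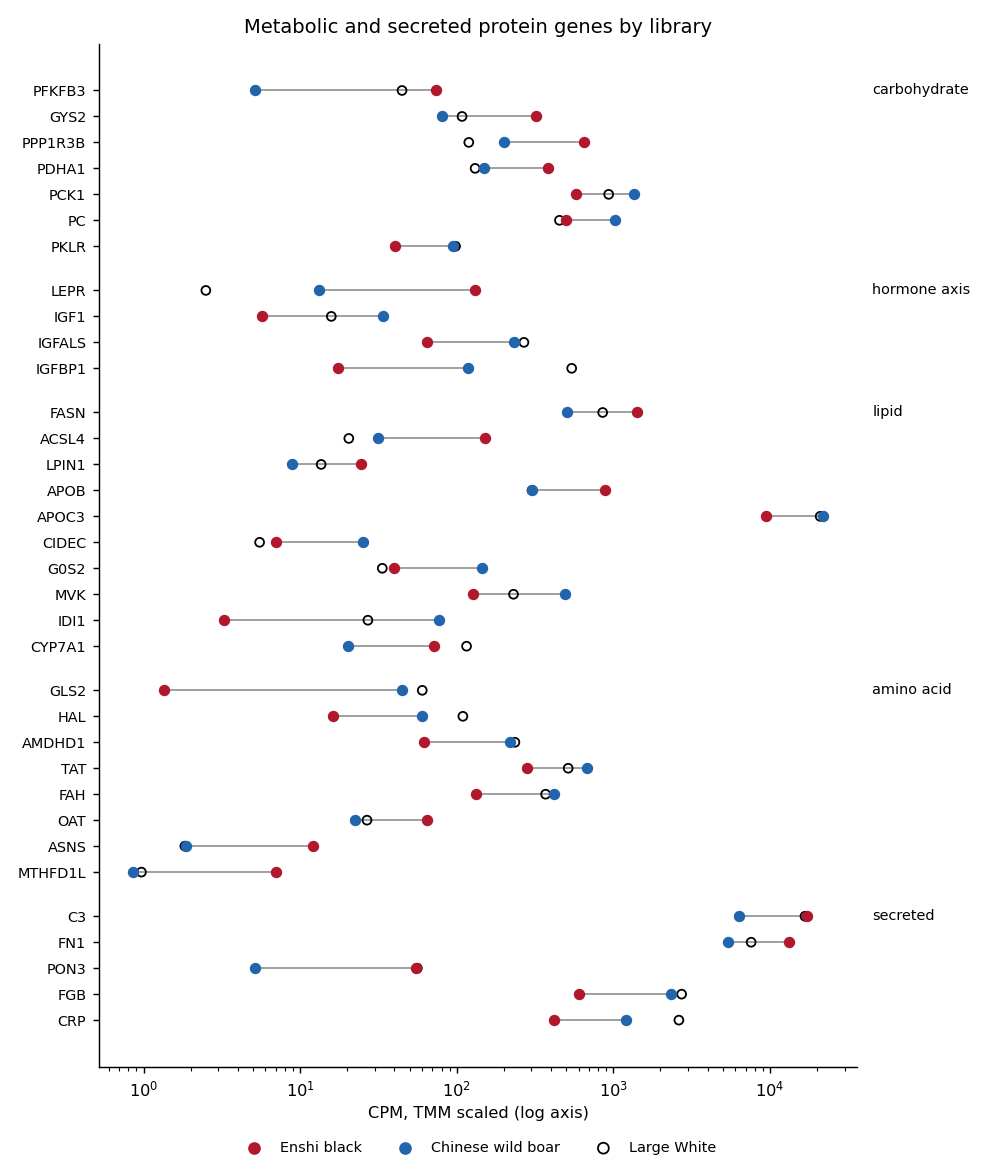
CPM on a log x axis of 34 metabolic and secreted protein genes (y axis) in the Enshi black (red), Chinese wild boar (blue) and Large White (open circles) libraries, with 1 library per breed and so no error bars. PFKFB3 has 74.1 CPM in Enshi black and 5.17 in Chinese wild boar, and GLS2 has 1.34 and 44.8.

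Fat synthesis and fat packaging genes also split. Fatty acid synthase (FASN), which builds palmitate, had 1424 CPM in Enshi black and 505 in Chinese wild boar, 2.82-fold (2.76 to 2.88) higher. ACSL4, which activates polyunsaturated fatty acids, had 152 against 31.4 CPM, 4.84-fold (4.44 to 5.28) higher, and LPIN1, a phosphatase of triglyceride synthesis, was 2.77-fold (2.33 to 3.31) higher. ACSL1, the main hepatic acyl-CoA synthetase, was 2.19-fold (2.15 to 2.23) lower with 842 against 1842 CPM. The mitochondrial citrate carrier SLC25A1 was 2.7-fold (2.58 to 2.82) lower. Together 3 of 20 synthesis genes passed as higher and 2 as lower (median 0.32).

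Lipoprotein and lipid droplet genes gave more calls as lower than as higher in Enshi black: 6 of 24 passed as lower and 1 as higher (median -0.50, and -0.51 to -0.41 over 4 scalings). The lower members were G0S2, CIDEC, PLIN5, CIDEB, PLIN4 and APOC3. G0S2, an inhibitor of the main triglyceride lipase, had 39.8 CPM in Enshi black and 145 in Chinese wild boar, 3.64-fold (3.37 to 3.93) lower. CIDEC, which enlarges lipid droplets, had 7.05 against 25.3 CPM, 3.59-fold (2.99 to 4.34) lower. Large White lay near Enshi black for both, at 33.5 and 5.51 CPM. Lower levels were also found for the droplet coat proteins PLIN5, by 2.75-fold (2.5 to 3.03), and PLIN4, by 2.63-fold (2.2 to 3.15), while CIDEB, which loads very low-density lipoprotein with lipid, was 2.4-fold (2.31 to 2.5) lower. APOB, the structural protein of that lipoprotein, was the member that passed as higher, with 884 CPM in Enshi black and 303 in Chinese wild boar, 2.92-fold (2.83 to 3.01). Centred within groups of gene span, 1 passed as higher and 4 as lower, and APOC3 was among those that no longer passed.

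Most sterol genes did not pass. Of 24 cholesterol genes, IDI1 and MVK, both of the mevalonate route, passed as lower and none as higher (median -0.19). IDI1 had 3.25 CPM in Enshi black, 77.6 in Chinese wild boar and 27.1 in Large White, 23.9-fold (18.8 to 30.8) lower, and MVK was 3.83-fold (3.67 to 4.0) lower. Bile acid genes gave 3 higher and 3 lower of 18 (median -0.44). CYP7A1, the rate-limiting enzyme of the classic pathway, had 71.8 CPM in Enshi black and 20.4 in Chinese wild boar, 3.53-fold (3.16 to 3.95) higher. KLB, the coreceptor through which intestinal FGF19 represses that enzyme, was 2.99-fold (2.74 to 3.27) higher. The export subunit SLC51A was 5.95-fold (2.06 to 23.5) higher at 26 against 4 counts. The reductase AKR1D1, the acyl-CoA ligase SLC27A2 and the oxysterol hydroxylase CYP7B1 were 3.54-fold (3.25 to 3.87), 2.21-fold (2.11 to 2.32) and 2.4-fold (2.1 to 2.76) lower. SLC27A2 and CYP7B1 did not pass with total counts. Among 27 phospholipid and sphingolipid genes, choline kinase CHKA was 3.24-fold (2.93 to 3.59) higher and the ceramide synthase CERS4 2.67-fold (2.54 to 2.8) lower (median -0.047).

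Genes of several amino acid breakdown routes were lower in Enshi black. Of 50 genes, 8 passed as lower and 1 as higher (median -0.31). GLS2, the liver glutaminase, had 29 counts in Enshi black, 885 in Chinese wild boar and 1181 in Large White, 33.3-fold (23.1 to 50.1) lower. The histidine route was represented by HAL, its first enzyme, at 3.68-fold (3.26 to 4.15) lower and AMDHD1, which acts later, at 3.55-fold (3.34 to 3.78) lower. In the tyrosine route TAT had 280.1 CPM in Enshi black and 682 in Chinese wild boar, 2.44-fold (2.36 to 2.51) lower, while HGD and FAH, near the end of that route, were 2.5-fold (2.37 to 2.64) and 3.16-fold (3.03 to 3.3) lower. HPD, the second enzyme of that route, lay just inside the rule at 2.03-fold (2.0 to 2.07) lower and did not pass with total counts. AMT, of the glycine cleavage system, was 4.35-fold (3.96 to 4.77) lower. The 1 higher member was OAT, an ornithine aminotransferase, with 64.3 CPM in Enshi black and 22.4 in Chinese wild boar, 2.87-fold (2.57 to 3.2) higher.

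Serine, methionine and one-carbon genes gave 3 higher and 2 lower of 27. The higher ones included MTHFD1L, a mitochondrial folate enzyme, with 152 counts against 17, 8.18-fold (4.95 to 14.4). Asparagine synthetase ASNS, a target of the amino acid response, had 12.1 against 1.87 CPM, 6.46-fold (4.56 to 9.38) higher. In both genes Chinese wild boar and Large White lay close together, with 0.969 and 1.84 CPM in Large White. The choline and sarcosine dehydrogenases CHDH and SARDH were 2.36-fold (2.22 to 2.51) and 2.11-fold (2.04 to 2.18) lower, the latter not with total counts.

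Genes known for their place in the liver lobule were counted by zone. Of 22 periportal genes, 6 passed as lower in Enshi black and none as higher, with a median of -0.65 (-0.65 to -0.55 over 4 scalings) and 4 members above 0. They were GLS2, HAL, TAT, PCK1 and IGFALS, given above, and the cationic amino acid transporter SLC7A2, which had 17.9 CPM in Enshi black and 115 in Chinese wild boar, 6.44-fold (5.78 to 7.2) lower. Of 21 genes of the pericentral and Wnt list, 3 passed as higher and 1 as lower, with a median of 0.48 (0.47 to 0.57). With only genes of at least 10 CPM, 2 of 14 of that list passed as higher and 1 as lower (median 0.27). The same filter left 6 of 21 periportal genes as lower (median -0.69). CYP2E1, a pericentral cytochrome, had 3574 CPM in Enshi black and 1601 in Chinese wild boar, 2.23-fold (2.2 to 2.26) higher, and OAT was higher too. LEF1, a Wnt effector that T cells also express, was 18.2-fold (8.1 to 50.5) higher at 119 against 6 counts. AKR1D1 was the lower member. The periportal urea cycle genes CPS1 (1024 and 1257 CPM) and ASS1 (1655 and 1366) did not pass. The difference between the lists was not tested, and how each sample was taken within the liver is not given in the sources used here.

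**Figure D5:**
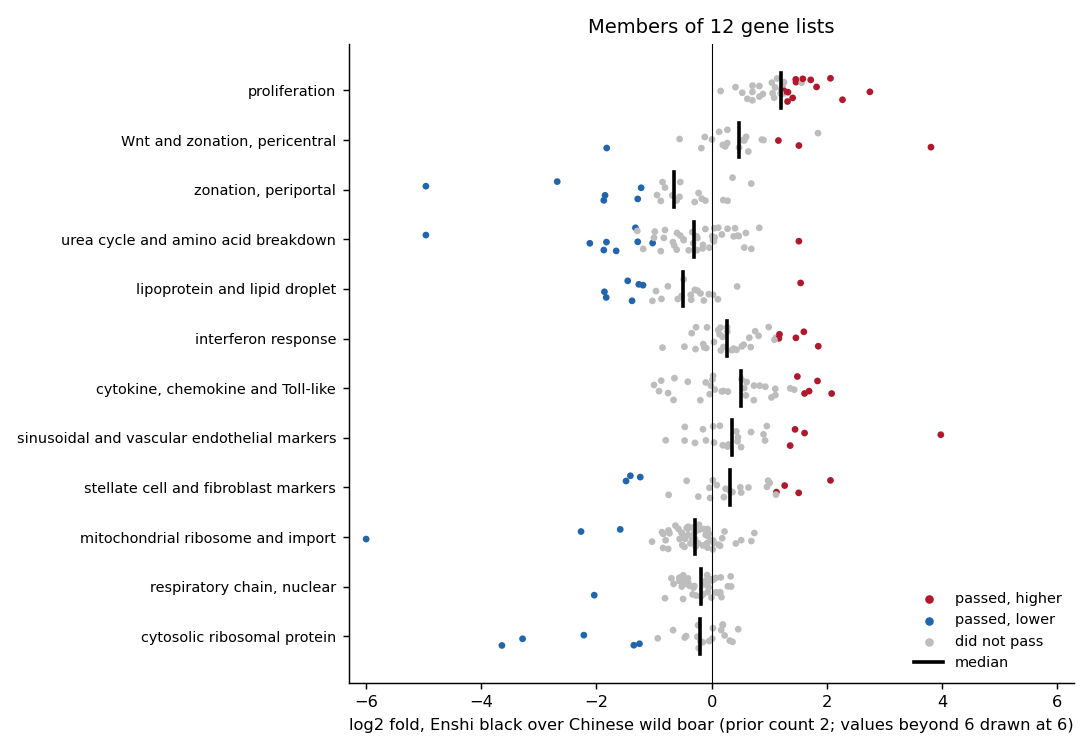
Log2 fold of Enshi black over Chinese wild boar (x axis, prior count 2) of each expressed member of 12 gene lists (y axis), in red or blue where it passed as higher or lower and grey where it did not, with the list median as a black bar. The proliferation members all lie above 0 with a median of 1.21, and the periportal median lies at -0.65.

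Plasma protein genes passed on both sides. Of 32, PON3 and FN1 passed as higher and AFP and IGFALS as lower (median 0.031). Alpha-fetoprotein (AFP), the albumin relative of the fetal liver, had 15 counts against 95, 6.92-fold (3.99 to 12.8) lower. The acute phase list gave 2 higher and 3 lower of 13 (median -0.18). C-reactive protein (CRP), a classic acute phase opsonin, had 417 CPM in Enshi black and 1199 in Chinese wild boar, 2.88-fold (2.81 to 2.95) lower, and Large White was highest at 2624. Fibrinogen beta (FGB), a clotting protein that rises in the same response, had 605 against 2351 CPM, 3.88-fold (3.81 to 3.96) lower. LCN2, which withholds iron from bacteria, was 3.58-fold (2.73 to 4.75) higher at 12.1 CPM. The enzyme NNMT was 3.46-fold (3.1 to 3.86) lower.

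Of 25 complement genes, C3 and the lectin FCN2 passed as higher and none as lower (median 0.10). FCN2 had 289 CPM in Enshi black and 102 in Chinese wild boar, 2.84-fold (2.7 to 2.99) higher. Factor B (CFB) had 5087 and 3628 CPM and C4A had 4606 and 3235, and neither passed. In coagulation and fibrinolysis, 1 of 29 passed as higher, and FGB and PROCR as lower (median 0.11). PROCR, the endothelial protein C receptor, had 2.18 against 9.17 CPM, 4.21-fold (3.04 to 5.93) lower.

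Interferon and cytokine genes passed in 1 direction. Of 35 interferon response genes, 5 passed as higher in Enshi black and none as lower (median 0.27, 0.27 to 0.37 over 4 scalings). PARP14, an interferon-induced ADP-ribosyltransferase, had 121 CPM in Enshi black and 33.4 in Chinese wild boar, 3.62-fold (3.32 to 3.94) higher. The transcription factor IRF1 and the guanylate-binding proteins GBP2 and GBP1 were 2.25-fold (2.04 to 2.49), 2.79-fold (2.25 to 3.46) and 3.16-fold (2.1 to 4.88) higher. In Large White, IRF1 was above both at 133 CPM. Of 35 cytokine, chemokine and Toll-like genes, 5 passed as higher and none as lower (median 0.52). With only genes of at least 10 CPM, 2 of 20 passed as higher and the median was 0.10. Their summed level was 1257 CPM in Enshi black and 1329 in Chinese wild boar, which is not the direction of the members that passed. The chemokine CXCL14 had 25.2 against 5.88 CPM, 4.29-fold (3.51 to 5.29) higher. TLR8, a receptor for single-stranded RNA, the chemokine CCL2 and the B cell factor TNFSF13B were 3.68-fold (2.66 to 5.18), 3.33-fold (2.37 to 4.76) and 3.16-fold (2.21 to 4.61) higher.

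Markers of T and NK cells gave calls in the same direction. Summed over 25 matched T and NK cell markers, the level was 280.2 CPM in Enshi black, 150.4 in Chinese wild boar and 296 in Large White, and 9 of 21 expressed markers passed as higher and none as lower, with GZMA at 0 in both libraries and CD28 in Chinese wild boar. The part of these cells in the interferon, cytokine and proliferation results was not tested.

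The proliferation list gave calls in 1 direction, with 12 of 35 expressed members higher and none lower (median 1.21). All 35 had a log2 fold above 0 under each of 4 scalings and after centring by gene span. Some members, such as CCNB3 and TTK, met the filter of 1 CPM only through Enshi black. With no filter 12 of 36 passed as higher (median 1.21), and with only genes of at least 10 CPM 7 of 15 did (median 1.25). The summed level was 536 CPM in Enshi black, 245 in Chinese wild boar and 285 in Large White. CENPF, a kinetochore protein of late cell cycle, had 58.6 CPM in Enshi black and 12.1 in Chinese wild boar, 4.86-fold (4.23 to 5.61) higher. TOP2A, which untangles DNA before division, had 52.5 against 14.8 CPM, 3.55-fold (3.12 to 4.05) higher. The replication helicase subunits MCM3 and MCM4 were 2.67-fold (2.27 to 3.14) and 2.4-fold (2.14 to 2.7) higher. Cyclin CCNB3 and the spindle checkpoint kinases TTK and BUB1B passed at low counts, with 9, 13 and 17 counts in Chinese wild boar. The mitotic genes DLGAP5, ANLN, CENPE, KIF23 and ASPM passed as well, with folds from 2.52 to 3.08. Those that did not pass included RRM1, a ribonucleotide reductase subunit, with 63.4 and 56.9 CPM, and PLK1 with 9.0 and 5.47.

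Markers of cells that line and support the sinusoids gave calls in both directions. Of 24 endothelial markers, 4 passed as higher and none as lower (median 0.36), and no matched marker was at 0 in either library. The summed level was 1571 CPM in Enshi black, 1238 in Chinese wild boar and 1856 in Large White. KDR, the main receptor of vascular endothelial growth factor, had 169 CPM in Enshi black and 61.9 in Chinese wild boar, 2.73-fold (2.56 to 2.92) higher. FLT1, a second receptor of that factor, was 2.58-fold (2.24 to 2.98) higher but not once centred by gene span, and the mannose receptor MRC1, which Kupffer cells share, had 190.1 against 62.1 CPM, 3.06-fold (2.87 to 3.27). The ligand VEGFA, counted with the hypoxia and angiogenesis list, had 67.3 CPM in Enshi black and 165 in Chinese wild boar, 2.45-fold (2.3 to 2.61) lower. That list gave 4 higher and 1 lower of 17 (median 0.78), with the collagen hydroxylase P4HA1 at 2.47-fold (2.2 to 2.77) and NDRG1 at 2.84-fold (2.04 to 4.02) higher. Centred by gene span, 1 of its members passed as higher and 1 as lower.

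Stellate cell and fibroblast markers gave 4 higher and 3 lower of 25 (median 0.32), and their summed level was 2495 CPM in Enshi black, 1618 in Chinese wild boar and 1517 in Large White. RELN, a secreted glycoprotein of stellate cells, had 152 CPM in Enshi black and 36.4 in Chinese wild boar, 4.19-fold (3.86 to 4.55) higher. The fibrillar collagen COL3A1 had 838 against 384 CPM, 2.18-fold (2.12 to 2.24) higher, and its associates COL14A1 and DCN were 2.86-fold (2.61 to 3.12) and 2.42-fold (2.07 to 2.85) higher, DCN not once centred by gene span. Desmin (DES), an intermediate filament of quiescent stellate cells and muscle, had 14.2 against 37.9 CPM, 2.67-fold (2.33 to 3.06) lower. LHX2, a transcription factor that keeps stellate cells quiescent, was 2.38-fold (2.01 to 2.82) lower and FBLN2 2.88-fold (2.04 to 4.12) lower, and neither passed with total counts. In the wider matrix list, 4 of 53 passed as higher and 3 as lower (median 0.35), and of 26 matrix protease genes MMP25 alone passed, as higher. COL5A3 and LAMB3 were 4.42-fold (3.38 to 5.84) and 3.15-fold (2.78 to 3.58) lower. Of 35 adhesion genes, VCAM1, which captures leukocytes, was 3.63-fold (3.15 to 4.19) higher and its integrin partner subunit ITGA4 3.05-fold (2.51 to 3.73) higher. VIL1, a microvillus protein, was 4.29-fold (3.96 to 4.65) lower with 35.6 CPM in Enshi black and 152 in Chinese wild boar, and the junction proteins TJP3 and DSC2 and the leukocyte ligand ICAM1 were 2.73-fold (2.45 to 3.06), 2.48-fold (2.22 to 2.78) and 2.31-fold (2.01 to 2.66) lower. ICAM1 did not pass with total counts.

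Kupffer cell and macrophage markers were mixed, with 2 higher and 3 lower of 18 (median -0.10). CSF1R, the receptor that maintains macrophages, had 15.6 CPM in Enshi black and 55.8 in Chinese wild boar, 3.57-fold (3.16 to 4.05) lower, and CLEC4F, a Kupffer cell lectin, had 38 against 107 CPM, 2.82-fold (2.6 to 3.06) lower. FCGR1A had 2 counts against 43. The iron exporter SLC40A1 passed as higher. Erythroid markers gave 3 lower of 7, and their summed level was 110.9 CPM in Enshi black and 288 in Chinese wild boar. Haemoglobin HBB had 36.5 CPM in Enshi black and 183 in Chinese wild boar, 5.0-fold (4.63 to 5.41) lower, and the carbonic anhydrase CA2 was 3.62-fold (3.24 to 4.06) lower. How much blood each sample held is not given in the sources used here. Neutrophil markers gave 1 higher and 1 lower, LTF, of 8. Among 15 biliary and epithelial markers, ELF3 and SPP1 passed as higher at 3.99-fold (3.11 to 5.16) and 2.41-fold (2.02 to 2.88), and 2, VIL1 among them, as lower. Of the B and plasma cell markers, 4 of 8 passed as higher and POU2AF1 as lower, while their summed level was 69.0 CPM in Enshi black and 69.8 in Chinese wild boar. Of 27 matched neural, muscle and pancreas markers, 16 had no count in Enshi black and 9 none in Chinese wild boar. Of the 8 expressed ones, GABRQ passed as higher and ABCC8, CPA1, GFAP and DES as lower. Summed over the 27 matched markers, the level was 153.9 CPM in Enshi black, 116.3 in Chinese wild boar and 30.5 in Large White. That is not the direction of the 4 lower calls.

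The iron, copper and zinc list had calls on both sides, 4 higher and 3 lower of 24 (median 0.29). SLC40A1 (ferroportin), the only known cellular iron exporter, had 14.5 CPM in Enshi black and 2.23 in Chinese wild boar, 6.51-fold (4.74 to 9.14) higher. BMP6, an endothelial signal that raises hepcidin when iron is high, had 151 against 37.9 CPM, 3.97-fold (3.67 to 4.31) higher. TFRC, which takes up transferrin iron, was 2.47-fold (2.3 to 2.65) higher, and the metal reductase STEAP4 3.94-fold (3.46 to 4.49) higher. MT3, annotated as a metallothionein and a member of a family of similar copies, had 2.09 CPM in Enshi black, 22.8 in Chinese wild boar and 866 in Large White, 10.9-fold (8.05 to 15.2) lower. The zinc transporter SLC39A5 was 2.83-fold (2.7 to 2.97) lower. IREB2, an iron sensor that binds messenger RNA, had no count in Enshi black and 28 in Chinese wild boar.

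Clock genes also gave calls on both sides, 2 higher and 4 lower of 16 (median -0.049). The activator BMAL1 had 2.13 CPM in Enshi black and 10.5 in Chinese wild boar, 4.94-fold (3.57 to 6.96) lower, and the repressors CRY1, PER1 and NFIL3 were 3.02-fold (2.49 to 3.69), 2.5-fold (2.38 to 2.63) and 2.5-fold (2.25 to 2.78) lower. PER2 and BHLHE41, which also repress the clock, were 2.34-fold (2.13 to 2.58) and 5.74-fold (3.31 to 10.7) higher. The hour of sampling is not given in the sources used here. Among 20 immediate early genes, EGR1 had 29.7 against 159 CPM, 5.36-fold (4.92 to 5.85) lower, and NR4A3 was 5.39-fold (2.64 to 12.4) higher at 9 counts in Chinese wild boar.

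Stress lists gave calls on both sides, to be read beside the 3.54% higher and 5.47% lower of all genes with a symbol. Of 31 heat shock and chaperone genes, HSPA1L had 2330.2 CPM in Enshi black and 899 in Chinese wild boar, 2.59-fold (2.55 to 2.64) higher, and HSPA8, the constitutive relative, was 3.43-fold (3.18 to 3.7) lower. Both belong to a family of near-identical copies and are uncertain. In the unfolded protein and amino acid stress list of 21, ASNS passed as higher and ATF5, a transcription factor of that response, as lower, with 571 against 1220.4 CPM. ATF5 did not pass with total counts. The oxidative stress list gave 1 higher and 3 lower of 21. NQO1, a quinone reductase under NRF2 control, had 26.1 CPM in Enshi black and 5.83 in Chinese wild boar, 4.48-fold (3.66 to 5.53) higher. KEAP1, the protein that holds NRF2 down, had 5 counts in Enshi black, 146 in Chinese wild boar and 165 in Large White, 31.9-fold (13.4 to 99.7) lower. SRXN1, another NRF2 target, had none against 96, and superoxide dismutase SOD1 was 2.14-fold (2.09 to 2.19) lower, though not with total counts. Of 15 p53 and apoptosis genes, BBC3 passed, 5.76-fold (3.76 to 9.13) lower.

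Lists of regulators gave calls on both sides, to be read beside the 3.54% higher and 5.47% lower of all genes with a symbol. Among 42 nuclear receptors and liver transcription factors, the orphan receptor ESRRG had 80 counts against 3, a ratio of 24.4 (8.06 to 121) towards Enshi black. In all, 2 of that list passed as higher and 2 as lower, ATF5 among the latter. Of 33 TGF-beta and BMP genes only BMP6 passed. Of 23 Notch and Hippo genes only STK4, a kinase of the Hippo pathway, passed, with 24 counts against 320, 14.6-fold (9.61 to 23.1) lower. Among 24 growth factor genes, the receptor KIT was 3.44-fold (2.63 to 4.54) higher, while the feedback inhibitor SPRY1 and the receptor ERBB3 were 13.1-fold (8.78 to 20.4) and 2.32-fold (2.13 to 2.53) lower. SPRY1 had 26 counts against 312. In the retinoid and vitamin list, 2 of 20 passed as higher, ALDH1A2 and DHRS7, and CRABP1 as lower with 6 counts against 51.

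No member of the mitochondrial and ribosomal lists passed as higher, and the counts of lower members are to be set beside the 5.47% of all genes with a symbol. Of the 13 mitochondrially encoded genes, ND2 had 728 CPM in Enshi black and 3074 in Chinese wild boar, 4.22-fold (4.15 to 4.3) lower, and ND1 had 1342 against 3609 CPM, 2.69-fold (2.65 to 2.73) lower. Both code for subunits of complex I. ND4, of the same complex, had 3347 and 2426 CPM and did not pass. Of 43 nuclear respiratory chain genes, the ATP synthase subunit ATP5ME passed, 4.12-fold (3.82 to 4.44) lower (median -0.19). In the citric acid cycle and carrier list, 4 of 45 passed as lower: the malate dehydrogenase MDH2 at 3.02-fold (2.92 to 3.13), the carriers SLC25A45 at 10.2-fold (6.68 to 16.3) and SLC25A25 at 2.93-fold (2.77 to 3.11), and SLC25A1. Of 57 mitochondrial ribosome and import genes, MRPL55, MRPS18B and MRPS31 passed as lower and none as higher, with a median of -0.29 and 11 members above 0 (11 to 19 over 4 scalings). The share of lower members was under the background in the nuclear respiratory chain list and the mitochondrial ribosome list.

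Cytosolic ribosomal protein genes gave 5 lower and none higher of 24 (median -0.21). Centred by gene span, 5 still passed as lower and the median was -0.028. RPS23 had 39 CPM in Enshi black and 380.0 in Chinese wild boar, 9.76-fold (9.08 to 10.5) lower, and RPS21 had 3.57 against 45.7 CPM, 12.8-fold (10.1 to 16.4) lower. RPLP1, RPL14 and RPS28 were 4.66-fold (4.5 to 4.83), 2.55-fold (2.45 to 2.66) and 2.38-fold (2.3 to 2.47) lower. These genes have many processed copies, so their counts are uncertain. None of 50 translation factors and tRNA synthetases passed, and the elongation factor EEF2 had 1995 and 1679.5 CPM. In secretion, 4 of 52 passed as lower, led by the coatomer subunit COPE at 4.05-fold (3.75 to 4.38), with SEC61A2, SRPRA and COPZ2. Among 46 glycosylation genes, MAN2A1 was 2.27-fold (2.11 to 2.45) higher and PMM1 4.07-fold (3.59 to 4.63) lower. MAN2A1 and SRPRA did not pass once centred by gene span, and COPZ2 passed neither then nor with total counts.

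Lists of protein turnover, nuclear functions and cell structure were counted next. In each of them the share called in either direction was under the 9.01% of all genes with a symbol. The genes named are therefore single calls and not results about these lists. Of 37 proteasome and ubiquitin genes, UBE2Z passed, 2.29-fold (2.06 to 2.55) lower, and not with total counts. Of 59 lysosome and autophagy genes, GABARAPL1, an autophagosome protein, had 27.1 CPM in Enshi black and 145 in Chinese wild boar, 5.37-fold (4.91 to 5.88) lower, ATP6V0A1 was 2.81-fold (2.18 to 3.63) lower and 1 gene passed as higher. Splicing genes gave 3 lower of 51, HNRNPK at 4.76-fold (4.35 to 5.2), RBM25 at 3.47-fold (3.23 to 3.73) and SRSF3 at 3.05-fold (2.42 to 3.87). Of 50 chromatin genes, the histone H3-3A and the acetyltransferase CREBBP were 3.41-fold (3.15 to 3.69) and 3.18-fold (2.94 to 3.44) lower. The phosphorylase UPP2 was the 1 call among 33 nucleotide genes, 2.29-fold (2.11 to 2.48) lower, and not with total counts. Of 55 cytoskeleton genes, the leukocyte actin bundler LCP1 was 2.52-fold (2.33 to 2.71) higher and CAPZA2 and VIL1 lower. Of 52 cilium genes, 3 passed as lower, led by the dynein DNAH1 with 1.21 against 6.99 CPM.

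Transporters of the plasma membrane gave 7 lower and 1 higher of 56 (median 0.012), to be read beside 5.47% lower and 3.54% higher of all genes with a symbol. With total counts as scaling, 5 passed as lower and 3 as higher, so the imbalance depended on the scaling. Besides SLC7A2, the monocarboxylate transporter relative SLC16A13 was 5.89-fold (4.85 to 7.21) lower, the citrate importer SLC13A5 3.26-fold (2.7 to 3.96) lower and the folate transporter SLC46A1 3.0-fold (2.11 to 4.34) lower. The higher member was the thiamine transporter SLC19A2, with 14 CPM in Enshi black and 4.86 in Chinese wild boar, 2.89-fold (2.29 to 3.67). Of 33 ABC, OATP and aquaporin genes, 3 passed as higher and 3 as lower. ABCC10 had 37 counts against 445, 13.1-fold (9.39 to 18.9) lower, and AQP9, the channel for glycerol uptake, had 118 against 268 CPM, 2.27-fold (2.16 to 2.38) lower. The potassium channel regulator ABCC9 and the lysosomal ABCA5 were 3.36-fold (2.59 to 4.42) and 4.38-fold (2.65 to 7.61) higher. Among 34 dehydrogenases, 4 passed as lower, led by DHRS4, and DHRS7 as higher.

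The lists of fatty acid oxidation and drug metabolism also held calls. Of 28 oxidation and ketogenesis genes, 7 passed as lower and none as higher, and of 20 drug metabolism genes 7 passed as higher and 4 as lower. PDK4, which shuts off the PDHA1 complex, belongs to the first list and had 27.9 CPM in Enshi black and 166 in Chinese wild boar, 5.96-fold (5.46 to 6.51) lower.

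Genes just inside and just outside the size rule differed little. RAC2 passed as higher with an interval of 2.0 to 2.5 (2.24-fold), and SEL1L did not at 1.998 to 2.32 (2.15-fold), its lower bound falling below 2. Among lower genes, ACOT6 passed at 2.21-fold and TTYH2 did not at 2.14-fold. When a coefficient of variation of 0.4 between animals was assumed and added to the counting error, 3.73% of genes still passed, 114 as higher (0.881%) and 369 as lower (2.85%). Of the 236 listed genes that had passed, 41 then still did. They included PFKFB3, LEPR, PON3, SLC40A1, MTHFD1L, ASNS and MMRN2 among higher genes, and GLS2, IDI1, IGF1, IGFBP1, SLC7A2, PDK4, MT3 and RPS23 among lower ones. Of the 12 proliferation genes that passed, CCNB3 still did, and of the lipoprotein, interferon and cytokine genes none did.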

How the data were processed

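Liver RNA was sequenced from 3 pigs, 1 library per breed. Per the submitters' processing notes, the authors used TopHat2 2.1.0, HTSeq 0.6.1 and edgeR 3.16.3 with the build Sscrofa10.2. The deposited values are raw read counts per gene. Which annotation release, strand setting and rule for reads with several matches were used is not given in the sources used here. From each table the 5 HTSeq summary rows were dropped. Counts were scaled by TMM factors (edgeR 4.0.16; 1.04 for Enshi black and 0.976 for Chinese wild boar) computed over the 3 libraries. Folds are ratios of scaled counts with exact conditional binomial intervals (Python 3.11.15, scipy 1.17.1). Log2 folds add a prior count of 2. A fold against 0 counts uses a floor of 3 counts in that library. With 1 library per breed, neither edgeR nor DESeq2 could give a test. Gene span comes from RefSeq on Sscrofa11.1, a build that differs from the files' own, and 95.0% of the 8625 expressed genes with a symbol had one.

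Genes named are, in each direction, the 15 with the farthest near bound and the 15 with the largest CPM difference past the size rule, up to 5 per list by near bound, and the 15 most abundant IDs. A few others were named after their values were seen: further passing members of the proliferation list, HGD, PLIN4 and SLC46A1, the genes beside the threshold, and CPS1, ASS1, CFB, C4A, RRM1, PLK1 and ND4, which did not pass. Some genes counted in the lists are not reported here by name. The members and lists were chosen with earlier results of these data known. Counts were simulated for 12946 genes in this comparison with counting error only. The size rule recovered 92 of the 100 genes given a 4-fold change and all 100 given an 8-fold change. None of 12746 unchanged genes was called, which that setting makes nearly certain. The simulation held no variation between animals, so it cannot show how often such variation would pass the rule. Alternatives were other scalings, filters, bounds and intervals, centring by gene span, and an assumed variation between animals.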

Additional observations from a re-analysis of the deposited data

How the results depend on the processing

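Counts of genes are given as higher and lower in Enshi black, against 524 and 934 over all genes and 105 and 131 over listed genes. Over all genes they were 263 and 520 with a filter of 10 CPM, 1287 and 1673 with a near bound of 1.5, 115 and 391 with a near bound of 4, and 242 and 565 or 114 and 369 with an assumed coefficient of variation of 0.2 or 0.4. An interval wider than 95% left 311 and 734. Over listed genes they were 233 and 248 with a near bound of 1.5, 16 and 35 with one of 4, 41 and 63 with a coefficient of 0.2, and 12 and 29 with one of 0.4. Each of these settings changes the size rule or the genes tested by its construction. Total counts in place of TMM moved the median log2 fold of all genes to 0.107 and gave 644 and 832, and 18 named genes no longer passed. Centring by gene span lost 24 named genes. Medians of 12 lists changed sign with total counts and of 14 with span centring, with a size of at most 0.15 as first computed. Medians of 12 lists changed sign when the mean replaced them, with a size of at most 0.13. The filter of 10 CPM turned 10, with sizes up to 1.25, and no filter turned 2, with sizes up to 0.76 (erythroid markers, -0.76 to 0.024). Both settings change which genes a list holds. No called gene among the 257 named by the rules reversed under any alternative run. That outcome was fixed in advance, since none of the alternatives can carry a fold from beyond 2-fold across 1.

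No paired analysis was possible because each breed has 1 library. For the same reason, leaving out a library gives no value. The coefficients of variation were assumed, not measured, and 64 of the 243 named genes that passed still did with 0.4. Depth limits low genes: at 1 to 10 CPM an interval is wide, and a count of 0 allows levels up to and somewhat past the floor.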

Other observations

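Outside the lists, 6842 expressed genes had a symbol, and 200 passed as higher in Enshi black and 341 as lower. Both shares were under the 3.54% higher and 5.47% lower of all genes with a symbol. The genes named here were chosen after their values were seen. Among higher genes, MIOX, which starts the breakdown of inositol, had 33.7 CPM in Enshi black and 6.89 in Chinese wild boar, 4.89-fold (4.07 to 5.92). TIPARP, a target of the aryl hydrocarbon receptor, had 25.3 against 4.61 CPM, 5.49-fold (4.39 to 6.93) higher, and the kinase SGK1, a glucocorticoid target, had 121 against 36.2, 3.35-fold (3.08 to 3.64) higher. The lactate exporter SLC16A3 was 7.89-fold (5.16 to 12.6) higher, and Large White lay between the other two libraries at 3.88 CPM. The secreted Wnt inhibitor SFRP1 and the matrix protein CPXM2 were highest in Enshi black, with 72.3 and 124 CPM, against 21.2 and 36.6 in Chinese wild boar and 6.79 and 14.1 in Large White.

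Among lower genes, the lysophospholipid transporter MFSD2A had 93.5 CPM in Enshi black and 479.6 in Chinese wild boar, 5.13-fold (4.89 to 5.39) lower, and Large White was below both at 35.6 CPM. EFNA1, a ligand of ephrin receptors, had 28.8 against 174 CPM, 6.05-fold (5.55 to 6.6) lower. DIABLO, a mitochondrial activator of apoptosis, had 8.02 against 59.7 CPM, 7.45-fold (6.34 to 8.78) lower. The tetraspanin TSPAN6 was 9.12-fold (7.69 to 10.9) lower. In these last 3 genes Large White lay between the other libraries, at 139, 46.4 and 31.1 CPM. CA3, a carbonic anhydrase of muscle and liver, had 8.76 against 46.3 CPM, 5.28-fold (4.51 to 6.21) lower, and Large White had 6.22 CPM.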
